A study of Mus musculus with 2 samples.

Results

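Angiopoietins and vascular endothelial growth factors (VEGFs) are secreted signals that act on blood vessels. Their transcripts were followed in fibro-adipogenic progenitors (FAPs), the mesenchymal progenitors that lie between muscle fibers. The set held the 3 angiopoietins of the mouse (Angpt1, Angpt2, Angpt4) and the 5 ligands of the VEGF family (Vegfa, Vegfb, Vegfc, Vegfd and Pgf). It also held the VEGF receptors Kdr and Flt1. All were chosen by name, with earlier results of these data known. These 10 genes were all found among the 31053 genes of the count tables.

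FAPs were sorted from limb muscle of 3-week-old C57BL/6 littermates as cells negative for 7AAD, CD45, CD31 and Vcam1 and positive for Sca1, and each genotype gave a single droplet scRNA-Seq library. The library labelled WT came from Bap1f/f mice, which carry the floxed alleles without Cre, and the library labelled cKO from Prx1-Cre;Bap1f/f mice, in which Cre is driven by a promoter active in early limb mesenchyme, so that the deletion is not limited to FAPs. Both libraries therefore share the floxed Bap1 alleles. The study asked what loss of Bap1, a deubiquitinase, in limb mesenchyme does to these cells, and since neither genotype has a replicate, differences between them are given with no p-value. The sources used here do not say how many mice went into a library.

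Angpt1 is the main activating ligand of the receptor Tie2 (Tek) on endothelial cells, while Angpt2 can activate or block the same receptor depending on the setting, and Angpt4 is the mouse counterpart of a human ligand that also binds it. Vegfa acts chiefly through Kdr (VEGFR2) and drives vessel growth, Vegfb and Pgf bind Flt1 (VEGFR1), and Vegfc and Vegfd act mainly through Flt4 (VEGFR3) on lymphatic vessels. Kdr and Flt1 are best known from endothelial cells, which the sort was set to remove through CD31, the product of Pecam1.

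Sequence before the start listed in RefSeq is shown for Angpt4, Kdr and Vegfa. Angpt4 and Kdr differed by over 2-fold between the libraries in opposite directions, and Vegfa was the ligand that the most cells held. The RefSeq table of GRCm38.p6 matched 8 of the 10 members, and the 250 bases before the listed start were searched on both strands for ACGTG and GCGTG, the cores bound by hypoxia-inducible factors (HIFs), written here in capitals. A core read on the other strand appears as CACGT or CACGC. Angpt4 is on the plus strand at chr2:151910957-151911206, Kdr on the minus strand at chr5:75978456-75978705 and Vegfa on the minus strand at chr17:46032378-46032627, each printed 5′ to 3′ along its gene.
Angpt4: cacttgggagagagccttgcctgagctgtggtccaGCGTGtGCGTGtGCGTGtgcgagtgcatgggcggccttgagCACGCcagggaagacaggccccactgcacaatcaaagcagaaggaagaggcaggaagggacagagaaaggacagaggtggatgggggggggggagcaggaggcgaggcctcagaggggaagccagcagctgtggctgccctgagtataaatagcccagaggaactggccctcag
Kdr: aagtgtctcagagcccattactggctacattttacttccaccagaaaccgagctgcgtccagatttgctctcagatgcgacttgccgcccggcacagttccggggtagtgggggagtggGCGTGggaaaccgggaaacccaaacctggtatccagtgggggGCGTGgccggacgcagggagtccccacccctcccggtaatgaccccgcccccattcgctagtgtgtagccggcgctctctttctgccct
Vegfa: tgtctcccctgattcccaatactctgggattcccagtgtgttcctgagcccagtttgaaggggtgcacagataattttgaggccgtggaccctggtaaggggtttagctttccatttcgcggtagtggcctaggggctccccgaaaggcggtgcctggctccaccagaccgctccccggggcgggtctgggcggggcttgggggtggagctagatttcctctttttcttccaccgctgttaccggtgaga
The Angpt4 window held 4 cores, of which 3 form a short repeat 215, 209 and 203 bases before the start, and it held a TATA box (TATAAA), as did the Vegfd and Flt1 windows and 12.4% of the 32851 windows of the table, on either strand. The Kdr window held 2 cores, 131 and 89 bases before the start, and the Vegfa window held none. For Vegfa and Pgf 2 windows each were listed, and only the more upstream was searched. Sequence further than 250 bases before a start was not searched, so a window without a core says nothing of cores elsewhere. A core was in 5 of the 8 windows and in 38.6% of all windows. The GC box GGGCGG, searched on both strands, was in each of the 8 windows except that of Vegfd, against 32.7% of all windows. These matches describe the letters and are no evidence of binding. The Angpt4 and Vegfa windows touched no exon of the GENCODE annotation, and the Kdr window shared 3 bases with an exon. The whole Kdr window lay inside the annotated span of the gene (chromosome 5, 75932827 to 75979072). The Kdr start used here is therefore downstream of the 5′ end of that span. The Pgf and Vegfd windows, which overlap annotated exons by 250 and 144 bases, are not printed.

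The WT library held 4103 cells with a median of 12232 UMIs, and the cKO library 4378 cells with a median of 11017.5. Pdgfra, the defining receptor of FAPs, was in 93.9% of WT cells and 84.1% of cKO cells. Ptprc and Pax7, which mark immune and muscle stem cells, had 0 UMIs in both libraries. So did 2 of 8 listed immune genes and 3 of 5 muscle stem genes, these included. Others were read, such as Cd68 in 4.19% and 6.05% of cells and Chodl in 3.05% and 1.92%. Any of the 8 immune genes was in 8.82% and 13.1%. The authors had removed cells high in markers of other cell types, so the 0 counts are no measure of purity. Vcam1, whose protein the sort selected against, was read in 26.3% and 12.6% of cells. The summed level of 6 adipocyte genes was 6.21 CPM (counts per 1000000 UMIs) in the WT library and 75.6 CPM in the cKO library, and its part in the results was not tested. RNA from outside the cells was present, since Acta1 of muscle fibers was seen in 12.5% and 6.74% of cells and the hemoglobin gene Hbb-bs in 6.17% and 8.34%. No cell type that should lack the members was at hand to set a background for their shares. Bap1 itself had 897 UMIs in the WT library and 1072 in the cKO library. Whether the 3′ reads of Bap1 fall outside the deleted exons was not examined, so this count does not check the labels.

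Levels are given as CPM of the UMIs summed over cells, and intervals are exact Poisson or binomial intervals at 95% that cover counting error only. Each log2 ratio of the cKO over the WT library is relative to total UMIs, and the median over the 14729 genes tested was 0.096 rather than 0. Scaling by TMM would lower each ratio by 0.097 over all cells and by 0.11 in the cells outside the Dpp4 type.

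Over all cells, the angiopoietins differed in opposite directions between the libraries. Angpt2 was at 6.86 CPM in the WT library and 2.12 CPM in the cKO library, a 3.24-fold lower level (log2 ratio -1.69, interval -2.02 to -1.38). Angpt4 was at 5.19 and 11.7 CPM, 2.25-fold higher in the cKO library (log2 ratio 1.17, interval 0.96 to 1.39). The intervals of both genes stood well apart between the libraries. Angpt1 was at 35.3 and 29.4 CPM (log2 ratio -0.26, interval -0.37 to -0.16), a small difference in level, yet 26.4% of WT cells and only 14.6% of cKO cells held one of its UMIs. Among cells thinned to 5000 UMIs, 558 of 3983 WT cells and 376 of 4168 cKO cells (9.02%) held one. The highest count of Angpt1 in a single cell was 9 in the WT library and 28 in the cKO library, so that fewer cells held it and some of them held more. A lower summed level cannot tell fewer cells with a transcript from less RNA per cell, and the shares and levels are given side by side for that reason.

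Among the VEGF ligands, Pgf (placental growth factor) showed the largest ratio. It was at 28.7 CPM in the WT library and 71.3 CPM in the cKO library, 2.48-fold higher (log2 ratio 1.31, interval 1.22 to 1.40), and was held by 17.7% and 28.0% of cells. Vegfd was at 17.6 and 30.6 CPM (log2 ratio 0.80, interval 0.68 to 0.92), and Vegfa at 95.4 and 135 CPM (log2 ratio 0.50, interval 0.45 to 0.55). Vegfa was the ligand with UMIs in most cells, 58.2% in the WT library and 65.9% in the cKO library. Vegfb differed little, from 19.9 to 23.5 CPM (log2 ratio 0.24, interval 0.12 to 0.36). Vegfc went the other way, at 14.4 and 7.83 CPM (log2 ratio -0.88, interval -1.06 to -0.70). The lymphatic ligands Vegfc and Vegfd thus differed in opposite directions between the libraries.

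The receptors were held by few cells. Kdr was at 9.51 CPM in the WT library and 3.84 CPM in the cKO library, 2.48-fold lower (log2 ratio -1.31, interval -1.56 to -1.06), and 271 WT cells and 133 cKO cells (3.04%) held it. Flt1 was at 2.74 and 3.13 CPM, a difference not detectable at this depth (log2 ratio 0.19, interval -0.15 to 0.53).

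Past 3-fold, 1 of the 10 members differed between the libraries over all cells, Angpt2, which was lower, against 5.27% of all genes tested (3.15% higher and 2.12% lower). With the cells that held any of 12 endothelial markers left out, Angpt2 was just inside 3-fold (log2 ratio -1.58). Past 2-fold, 4 members differed (Angpt2, Angpt4, Pgf and Kdr), where 12% of all genes did. The median absolute log2 ratio was 0.84 over the members and 0.26 over all genes. Since the members were chosen with earlier results of these data known, this excess is no independent result.

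**Figure D1:**
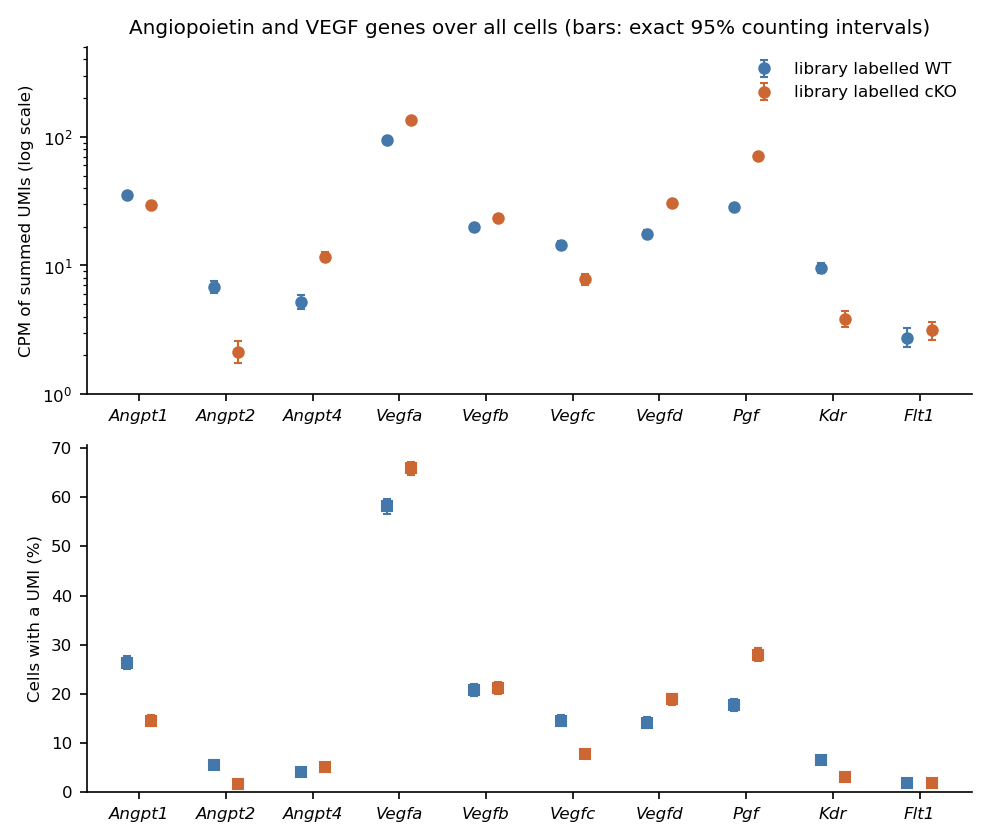
Levels (CPM of summed UMIs, log axis, upper panel) and shares of cells with a UMI (percent, lower panel) of the 10 members over all cells of the WT (blue) and cKO (orange) libraries, with exact 95% counting intervals. Pgf, Vegfd and Angpt4 sat higher in the cKO library and Angpt2, Vegfc and Kdr lower, while the Angpt1 level differed little beside shares of 26.4% and 14.6%.

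FAPs fall into a Dpp4+ subpopulation and a Cxcl14+ subpopulation. Cells were called Dpp4-type where Pi16, Sema3c, Anxa3 and Efemp1 together reached 25 UMIs per 10000, which took 1050 of the WT cells (25.6%) and 1251 of the cKO cells (28.6%). The class is a range of a score and not a sharp type, with 210 WT cells and 337 cKO cells between 20 and 30 UMIs per 10000. In the WT library, 6 of the 10 members differed by over 3-fold between Dpp4-type and other cells, against 10.1% of all genes tested, and in the cKO library 5 of 10, against 9.69%. None of the members was used for the score, and the comparison is within a library. The members were chosen with earlier results of these data known, so an excess over all genes is no independent result. In the WT library Angpt1 and Vegfc were inside 3-fold with a score limit of 15 (log2 ratios -1.36 and -1.34), and Vegfd with a limit of 40 (1.11). In the cKO library Kdr was inside 3-fold with a limit of 15 (-1.26) and with TMM scaling (-1.58). It was also inside with thinned cells (-1.50), cycling cells left out (-1.55) or equal weight of cells (-1.36). Vegfd there passed 3-fold with TMM scaling (1.60), thinned cells (1.72), equal weight (1.63) or a limit of 15 (1.85). Vegfc passed it, lower in Dpp4-type cells, with thinned cells (-1.75) or a limit of 40 (-1.90).

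The 3 angiopoietins were all lower in Dpp4-type cells. Angpt2 had 3 UMIs in Dpp4-type cells and 347 in the other cells of the WT library (0.213 and 9.40 CPM, log2 ratio -5.47, interval -7.75 to -3.91), and 5 and 100 in the cKO library (log2 ratio -3.09, interval -4.74 to -1.82). Angpt4 had 10 and 255 UMIs in the WT library (0.708 and 6.91 CPM) and 11 and 568 in the cKO library (0.745 and 16.3 CPM). Angpt1 was at 11.2 CPM in Dpp4-type cells and 44.5 CPM in the other cells of the WT library (log2 ratio -1.99, interval -2.24 to -1.75), and at 3.05 and 40.5 CPM in the cKO library (log2 ratio -3.73, interval -4.20 to -3.31). In all 3 genes the groups of cells did not overlap in their intervals in either library. Dpp4-type cells had a median of 13635 UMIs and other cells 11829 in the WT library, and 11661 and 10733 in the cKO library, and the part of depth in these ratios was not tested.

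The ligands of the VEGF family split by gene. Vegfd was higher in Dpp4-type cells, at 34.4 against 11.2 CPM in the WT library (3.08-fold) and 57.0 against 19.4 CPM in the cKO library (2.93-fold). Pgf followed it with 49.2 against 20.8 CPM and 112 against 53.8 CPM (2.36-fold and 2.09-fold). Both ligands had their highest level in the Dpp4-type cells of the cKO library and their lowest in the other cells of the WT library. Vegfc was the reverse, at 5.24 against 17.9 CPM in the WT library (3.42-fold lower) and 3.59 against 9.63 CPM in the cKO library (2.68-fold lower). Vegfb was 1.73-fold higher in Dpp4-type cells of the WT library (28.6 against 16.5 CPM) and 1.19-fold higher in those of the cKO library (26.5 against 22.2 CPM). Vegfa was at 111 and 89.4 CPM in the Dpp4-type and other cells of the WT library and at 129 and 138 CPM in those of the cKO library, so that it differed by little between the classes in both. Past 2-fold, 8 of the 10 members differed between the classes in the cKO library, against 17% of all genes, and Vegfd, Vegfc and Kdr stood near 3-fold in at least 1 library.

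Of the receptors, Flt1 had 8 UMIs in Dpp4-type and 132 in other cells of the WT library, and 7 and 148 in the cKO library. Kdr was at 5.17 and 11.2 CPM in the WT library (2.16-fold lower in Dpp4-type cells) and at 1.56 and 4.80 CPM in the cKO library (3.08-fold lower). The intervals of Kdr in the 2 groups of cells did not overlap in either library.

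**Figure D2:**
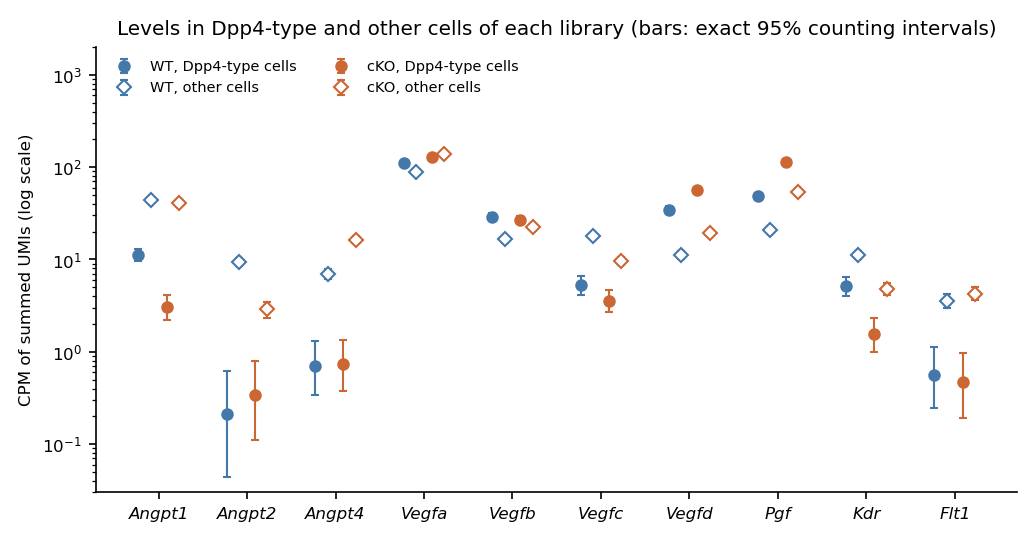
CPM of summed UMIs (log axis) of each member in Dpp4-type cells (filled circles) and other cells (open diamonds) of the WT (blue) and cKO (orange) libraries, with exact 95% counting intervals. The angiopoietins, Vegfc, Kdr and Flt1 sat lower in Dpp4-type cells of both libraries and Vegfd and Pgf higher.

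Within Dpp4-type cells, 2 of the 8 members with enough UMIs differed by over 3-fold between the libraries, against 3.52% of all genes tested. Given how the members were chosen, this excess too is no independent result. Angpt1 was 3.67-fold lower in the cKO library (158 and 45 UMIs, log2 ratio -1.88, interval -2.39 to -1.39) and Kdr 3.32-fold lower (73 and 23 UMIs, log2 ratio -1.73, interval -2.48 to -1.04). Angpt1 was inside 3-fold with a score limit of 40 (-1.46) and Kdr with a limit of 15 (-1.57), and Kdr had fewer than 100 UMIs over both libraries. In the other cells, Angpt1 stood at 44.5 CPM in the WT library and 40.5 CPM in the cKO library (log2 ratio -0.13, interval -0.24 to -0.03). Kdr was lower in the cKO library in the other cells as well (log2 ratio -1.22, interval -1.49 to -0.95). Whether the ratios differ between the 2 classes was not tested. Angpt2 and Flt1 had 8 and 15 UMIs over the Dpp4-type cells of both libraries, too few to compare. In the other cells, 1 of the 10 members passed 3-fold, Angpt2 at 9.40 and 2.88 CPM, against 5.86% of all genes. Past 2-fold there were 4, against 12.5%, with Angpt4 2.36-fold and Pgf 2.58-fold higher in the cKO library and Kdr 2.32-fold lower.

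Across the score itself, Angpt1 was low from a lower score on in the cKO library. From 0 to 5 UMIs per 10000 it was at 47.5 CPM in the WT library and 51.2 CPM in the cKO library, levels whose intervals overlap. From 5 to 15 it was at 40.4 and 27.8 CPM, from 15 to 25 at 41.2 and 8.69 CPM, from 25 to 50 at 20.0 and 4.28 CPM, and at 50 or more at 5.98 and 1.70 CPM. Pgf and Vegfd were higher in the cKO library at every step, and Pgf reached 44.2 and 128 CPM at scores of 50 or more. Angpt4 was highest at low scores, at 7.86 and 21.7 CPM from 0 to 5, and had 0 UMIs in the 652 WT cells at 50 or more (interval up to 0.416 CPM). Of the score genes, Pi16 and Anxa3 were lower and Sema3c and Efemp1 higher over all cKO cells (log2 ratios -0.53, -0.33, 0.29 and 0.55), so equal scores need not mark the same cells in the 2 libraries. The part of this in the results was not tested.

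**Figure D3:**
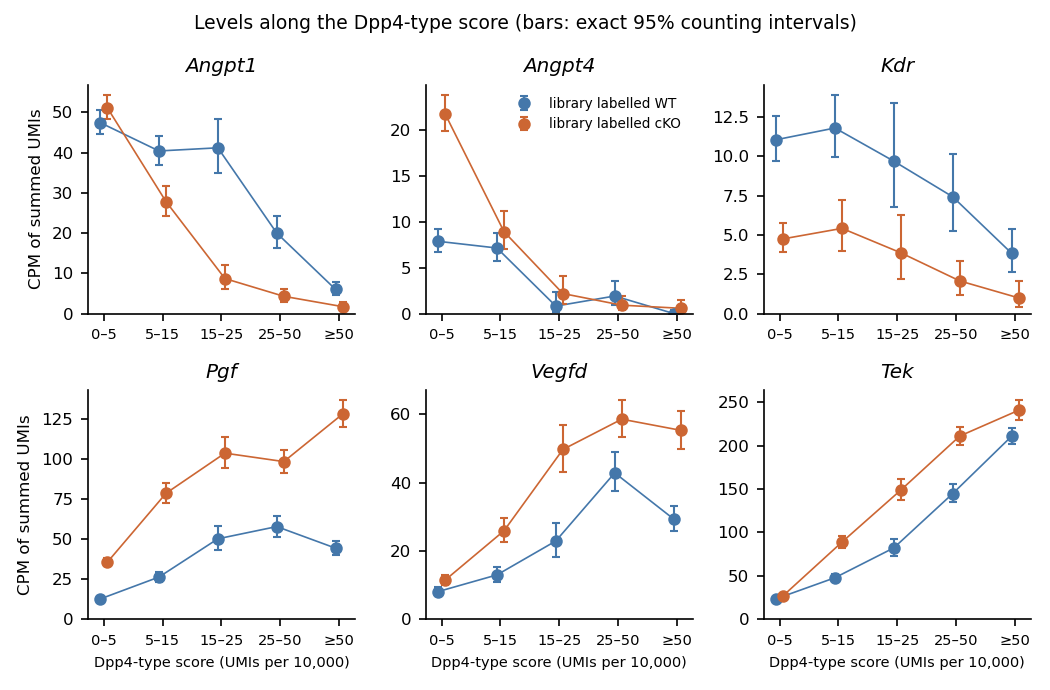
CPM of summed UMIs of 5 members and of the angiopoietin receptor gene Tek in cells grouped by the Dpp4-type score (UMIs per 10000 of its 4 genes), in the WT (blue) and cKO (orange) libraries, with exact 95% counting intervals. Angpt1, Angpt4 and Kdr are lower at the highest step than at the lowest and Pgf, Vegfd and Tek higher, with Angpt1 at 41.2 CPM in the WT library and 8.69 CPM in the cKO library between 15 and 25.

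Tek, the receptor of the angiopoietins, was itself read in these cells, and was higher in the Dpp4-type cells, where its ligands were lower. It was at 186 CPM in Dpp4-type cells and 37.3 CPM in other cells of the WT library (log2 ratio 2.32, interval 2.22 to 2.41), and at 225 and 56.3 CPM in the cKO library (log2 ratio 2.00, interval 1.92 to 2.08). A Tek UMI was in 871 of the 1050 Dpp4-type cells of the WT library and 1072 of the 1251 of the cKO library. From the lowest step of the score to the highest, Tek went from 23.3 to 211 CPM in the WT library and from 26.9 to 241 CPM in the cKO library. Tie1, the partner receptor of Tek on endothelial cells, had 6 and 7 UMIs over all cells.

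Nrp1, a coreceptor for VEGF ligands, ran the other way, at 96.6 CPM in Dpp4-type and 255 CPM in other cells of the WT library and at 75.9 and 213 CPM in the cKO library. Nrp2, the coreceptor of the lymphatic branch, was at 7.31 CPM over the WT library and 12.2 CPM over the cKO library (log2 ratio 0.74, interval 0.55 to 0.93). Flt4, the receptor of Vegfc and Vegfd, was in 0 of 4103 cells of the WT library, which allows a share of cells with a UMI of up to 0.0899% and sets no limit on cells that express it, and had 8 UMIs in the cKO library.

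Most cells with Kdr held neither of the endothelial genes Pecam1 and Cdh5. Of the 271 WT cells with a Kdr UMI, 13 (4.80%, interval 2.58% to 8.06%) held a UMI of either gene, beside 3.81% of the cells without Kdr. Of the 133 cKO cells with Kdr, 9 did (6.77%, interval 3.14% to 12.5%), beside 4.17% of the others. The intervals of these shares overlapped in both libraries. Leaving out every cell with either gene kept 93.4% of the Kdr UMIs in the WT library and 94.2% in the cKO library, at 9.25 and 3.79 CPM. Pdgfra was in 87.5% of the WT cells with Kdr, beside 94.3% of those without, and the intervals did not overlap. In the cKO library it was in 90.2%, beside 83.9% of those without, and the intervals overlapped. Its level in cells with and without Kdr was 243 and 356 CPM in the WT library. In the cKO library it was 313 and 297 CPM. In cells with no Pdgfra UMI, Kdr was at 22.6 CPM in the WT library and 3.04 CPM in the cKO library.

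The defining endothelial genes Cldn5 and Emcn had 8 and 4 UMIs over the WT library and 3 and 4 over the cKO library, and of the 17 listed genes Robo4 and Erg were at 0 in the cKO library. The full list of 17 endothelial genes was of less use, since Ramp2, Tek, Eng and Plvap of that list were in 87.7%, 41.7%, 46.9% and 22.5% of WT cells, and a UMI of any of the 17 was in 95.5% of WT cells and 93.9% of cKO cells. Among the 186 WT and 265 cKO cells with no UMI of the list, Kdr was at 33.2 CPM (interval 25.6 to 42.5) and 6.05 CPM (interval 3.31 to 10.2). The summed level of the list was 540 CPM in the WT library and 597 CPM in the cKO library, and Pecam1 and Cdh5 differed in opposite directions between the libraries (113 and 241 UMIs for Pecam1, 78 and 21 for Cdh5).

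Flt1 gave another picture. In the WT library, 10 of its 81 cells (12.3%, interval 6.08% to 21.5%) held a Cdh5 UMI, beside 1.42% of the other cells (interval 1.08% to 1.83%), and only 1 held Pecam1. Ptprb, a phosphatase gene known from endothelium, was at 14.7 CPM in those 81 cells and 3.08 CPM in the rest. Other endothelial genes were not higher there. Egfl7, Cldn5 and Emcn had 0 UMIs in those cells and 42, 8 and 4 in the rest, and Tek was at 38.2 beside 79.3 CPM. Pdgfra was in 95.1% of the WT cells with Flt1 beside 93.8% of the others, at 429 beside 345 CPM. In the cKO library 1 of 81 Flt1 cells held Cdh5 and 5 held Pecam1. Pdgfra was in 75.3% of these cKO cells beside 84.2% of the others, with overlapping intervals. A UMI of any of the 12 endothelial markers was in 17.3% of the WT cells with Flt1 beside 6.22% of the others, and in 18.5% (interval 10.8% to 28.7%) beside 8.52% (interval 7.70% to 9.39%) in the cKO library.

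**Figure D4:**
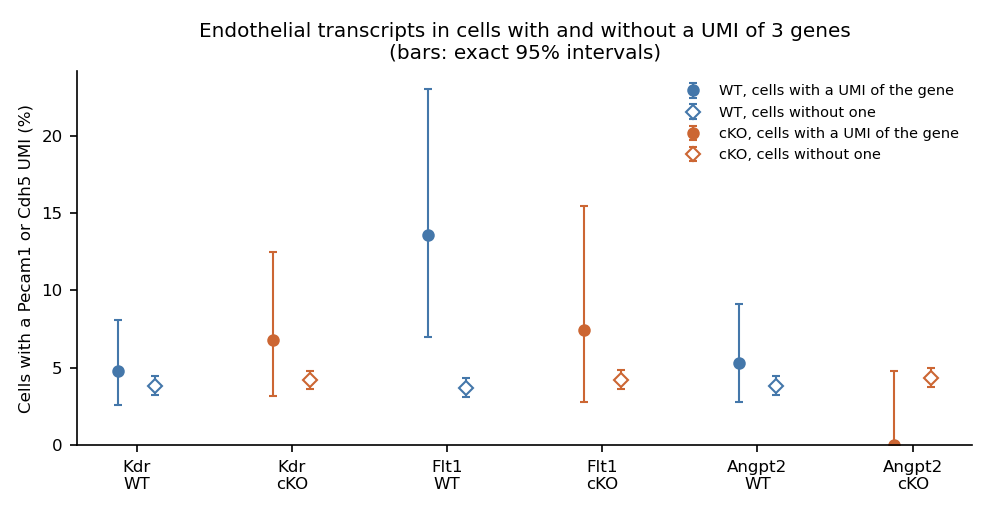
Share of cells with a UMI of Pecam1 or Cdh5 (percent) among cells with a UMI of Kdr, Flt1 or Angpt2 (filled circles) and among cells without (open diamonds), in the WT (blue) and cKO (orange) libraries, with exact 95% intervals. For Kdr the intervals overlap in both libraries (4.80% beside 3.81%, 6.77% beside 4.17%), and for Flt1 in the WT library they do not (13.6% beside 3.68%).

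Some of the low-share members were higher in groups of cells led by other genes. The groups were taken as cells with 2 or more UMIs, summed over a few genes already known to lead groups of FAPs in these data. Each group is named by all its genes, but a cell need not hold all of them. The limit was not scaled for depth. In the WT library the median was 14809 UMIs in the Lgr5 and Pappa2 group and 12175 outside it. Kdr was itself among the genes leading the Lgr5 and Pappa2 group, and Angpt2 among those leading the Fmo2 and Stc1 group. Angpt4 was among those leading the Spon1, Cldn2 and Hsd11b2 group. Their higher levels there thus follow from the choice of groups and are no separate result. The values describe where the UMIs lay and carry no test. Kdr was at 64.6 CPM in the 117 WT cells with Lgr5 and Pappa2 UMIs, a Wnt-pathway receptor and a protease of IGF-binding proteins, beside 7.57 CPM in the other cells (8.54-fold), and these cells held 23.1% of its UMIs. In the 53 such cells of the cKO library it was at 14.1 CPM beside 3.70 CPM, with 4.74% of its UMIs. Flt1 was not raised in those WT cells (6 UMIs, 3.46 beside 2.72 CPM), but reached 47.0 CPM in the 53 cKO cells beside 2.56 CPM in the rest (18.4-fold, 30 of its 155 UMIs).

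Angpt2 was higher in cells with Fmo2 and Stc1 UMIs. In the WT library these were 785 cells (19.1%), at 28.4 CPM beside 1.72 CPM in the rest, and they held 79.7% of all Angpt2 UMIs. In the cKO library they were 92 cells (2.10%), at 20.1 CPM (interval 12.6 to 30.4) beside 1.71 CPM, and they held 21.0% of its UMIs. Outside the group lay 83 of the 105 Angpt2 UMIs of the cKO library. The number of cells in the group is set by the counts of Fmo2 and Stc1 themselves. Its part in the Angpt2 difference over all cells was not tested. Pgf was low in the same group, at 8.74 beside 33.5 CPM in the WT library and 16.4 beside 72.5 CPM in the cKO library.

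Angpt4 was higher in cells with UMIs of Spon1, Cldn2 and Hsd11b2. In the cKO library 1329 such cells held 78.9% of its UMIs, at 29.1 CPM beside 3.61 CPM (8.06-fold). In the WT library 380 such cells held 20.8% of its UMIs, at 10.5 CPM beside 4.59 CPM (2.28-fold). Angpt4 was higher still in the 117 WT cells with Lgr5 and Pappa2 UMIs, at 22.5 CPM beside 4.59 CPM (4.91-fold), and had 2 UMIs in the 53 such cells of the cKO library. Angpt1 was also high in the 1329 cKO cells with Spon1, Cldn2 and Hsd11b2 UMIs, at 51.7 beside 19.0 CPM, and they held 55.9% of its UMIs. In the 380 such cells of the WT library Angpt1 was at 46.1 beside 34.0 CPM. Kdr was at 25.3 beside 7.69 CPM in the Spon1, Cldn2 and Hsd11b2 group of the WT library. In that of the cKO library it was at 7.00 beside 2.37 CPM. Among the cells with UMIs of the adipocyte genes Car3, Fabp4 and Adipoq, 31 in the WT library and 139 in the cKO library, Vegfa was at 137 CPM in the WT library (1.45-fold the rest) and 173 CPM in the cKO library (1.30-fold). Cycling cells, with UMIs of Mki67, Top2a and Cenpf, were near the rest in Vegfa (96.5 beside 95.3 CPM in 71 WT cells and 116 beside 136 CPM in 130 cKO cells).

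**Figure D5:**
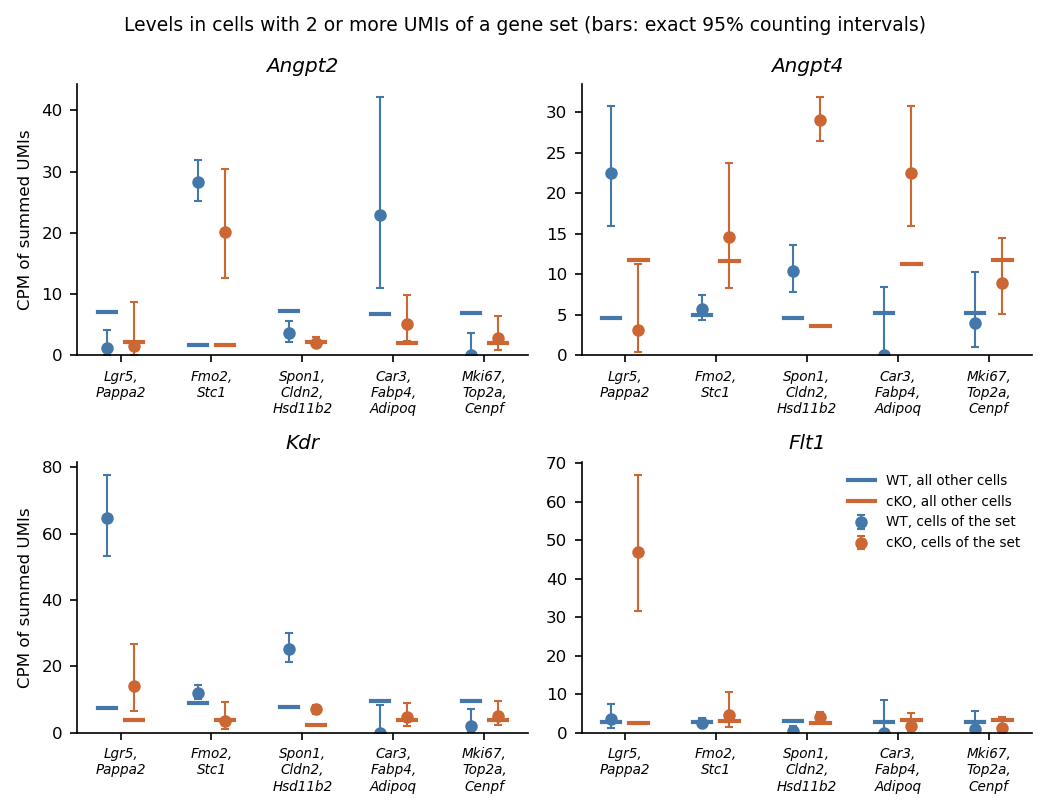
CPM of summed UMIs of Angpt2, Angpt4, Kdr and Flt1 in cells with 2 or more UMIs summed over a named gene set (points, with exact 95% counting intervals) and in all other cells of the same library (short lines), for the WT (blue) and cKO (orange) libraries. Angpt2 is highest in the Fmo2 and Stc1 cells of both libraries, but in the WT library its interval in the Car3, Fabp4 and Adipoq cells overlaps. Kdr peaks in the Lgr5 and Pappa2 cells of the WT library (64.6 CPM) and Flt1 in those of the cKO library (47.0 CPM).

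Members also differed with each other's presence in a cell. Cells with a Pgf UMI held Angpt2 at 0.730 CPM beside 8.28 CPM in the other cells of the WT library and at 0.268 beside 2.92 CPM in the cKO library. Angpt1 was higher in cells with Angpt4, at 74.4 beside 33.5 CPM and 72.4 beside 27.0 CPM. Kdr was higher in cells with Vegfc, at 16.6 beside 8.18 CPM in the WT library and 8.21 beside 3.42 CPM in the cKO library. Pgf and Vegfd, both higher in Dpp4-type cells, were not higher together. Pgf was at 18.5 CPM in WT cells with Vegfd and 30.6 CPM in those without, and at 63.3 and 73.3 CPM in cKO cells.

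The genes most like a member across cells were sought among 9479 genes, by Pearson's r of log-normalized values within each library over its 4103 or 4378 cells, which share a library and differ in depth. For Pgf they were Pcsk6 (r = 0.32 in the WT library and 0.42 in the cKO library), Cd55 (0.27 and 0.31) and Ret (0.27 and 0.30). For Vegfd they were Plpp3 (0.28 and 0.34), Sfrp2 (0.27 and 0.27) and Pcolce2 (0.27 and 0.31), and for Angpt1 Sfrp1 (0.23 and 0.30), Il11ra1 (0.21 and 0.29) and Gas6 (0.20 and 0.21). For Vegfa (Vtn, 0.14 and 0.16), Vegfb and Vegfc no gene reached 0.2 in both libraries. Angpt2, Angpt4, Kdr and Flt1 were held by fewer than 5% of cells in at least 1 library and were not compared.

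Of 25 other genes of the angiopoietin and VEGF system, 23 had enough UMIs over all cells, with a median log2 ratio of 0.17 beside 0.10 over all genes. Past 3-fold, 1 was lower and none higher in the cKO library, where 2.12% of all genes were lower and 3.15% higher. That gene was Ptprb, whose product removes phosphate from Tek, at 169 and 13 UMIs (3.31 and 0.262 CPM). The other genes with the largest ratios were Ccbe1, which assists the processing of Vegfc, at 11.9 and 5.63 CPM (log2 ratio -1.08), Angptl4, a secreted inhibitor of lipoprotein lipase, at 39.4 and 66.4 CPM (0.75), and Nrp2. Ccbe1, like Vegfc, was lower in the cKO library.

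Of 26 genes of oxygen sensing and HIF targets, to which Vegfa belongs as a classical target, 25 were compared. None passed 3-fold, where 5.27% of all genes did, and the median log2 ratio was -0.08. Pfkfb3, a regulator of glycolysis, was at 9.10 and 3.75 CPM (-1.28) and P4ha2, a collagen prolyl hydroxylase, at 186 and 94.5 CPM (-0.98), while Ndrg1 was at 35.2 and 61.5 CPM (0.81) and Ankrd37 had 211 and 342 UMIs (0.74).

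Of 12 vessel and mural recruitment factors, 10 were compared, and 2 were over 3-fold lower and none over 3-fold higher in the cKO library, with a median log2 ratio of -0.40. Over all genes 2.12% were over 3-fold lower and 3.15% higher, and the median was 0.10. They were Esm1, an endocan gene known from endothelial tip cells, with 96 and 4 UMIs, and Hgf, the ligand of Met, at 5.98 and 1.94 CPM (-1.63). Cxcl12, a chemokine, was at 226 and 95.9 CPM (-1.24) and Apln, the ligand of the apelin receptor, at 1.16 and 2.42 CPM (1.07). Of the 96 Esm1 UMIs in the WT library, 79 were in the cells with Fmo2 and Stc1 UMIs, the group that held Angpt2, as were 83 of the 169 Ptprb UMIs.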

How the data were processed

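FAPs of both genotypes were measured with 10x Genomics 3′ chemistry, 1 library each. The authors aligned reads to mm10 with Cell Ranger 3.1.0, used Seurat 3.2.1 to drop low-quality cells, doublets and cells that were not FAPs, at thresholds not given in the sources used here, and deposited the UMI counts of the remaining cells without normalization. No further cell was removed and no doublet caller was run. UMIs were summed per library and class, and ratios were taken of CPM from these sums for genes with 20 or more UMIs in both sums together. A count of 0 was set to a floor of 3 UMIs for the count over all genes. Intervals were exact Poisson, conditional binomial or Clopper-Pearson at 95% (scipy 1.17.1, Python 3.11.15). Cells were thinned to 5000 UMIs, which left out 120 WT and 210 cKO cells. TMM factors came from edgeR 4.0.16 in R 4.3.3, and no significance test was run on the libraries. The code for the ratios was checked on simulated counts. All 10 members are named, and of each list the 4 genes with the largest absolute ratio and the defining receptors. The members and lists were chosen with earlier results of these data known. Barcodes of 5 cells occurred in both libraries. Upstream sequence came from RefSeq, GRCm38.p6, and exons from GENCODE.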

Additional observations from a re-analysis of the deposited data

Results flagged for a closer look

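Vegfa had opposite signs between Dpp4-type and other cells in the 2 libraries. The log2 ratio of Dpp4-type over other cells was 0.31 (interval 0.23 to 0.40) in the WT library and -0.10 (interval -0.17 to -0.02) in the cKO library. Vegfb had opposite signs between the libraries in the 2 classes of cells, with a log2 ratio of the cKO over the WT library of -0.11 (interval -0.32 to 0.09) in Dpp4-type cells and 0.43 (interval 0.27 to 0.58) in other cells. Neither difference was tested, since each rests on 1 library per genotype.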

How the results depend on the processing

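No paired analysis was possible because neither genotype has a second library and the labels carry no replicate numbers, and no replicate could be left out. Of 580 single ratios recomputed under an alternative, 4 changed sign and 28 crossed 3-fold. Past 2-fold in place of 3-fold, 4 members differed between the libraries over all cells, 4 in other cells, and 8 between the classes of the cKO library. In Dpp4-type cells, 1 member passed 3-fold with a minimum of 100 UMIs (Angpt1), 1 with a score limit of 15 (Angpt1) and 1 with a limit of 40 (Kdr). Leaving out every cell with a UMI of an endothelial marker other than Eng kept 282 WT and 370 cKO cells, of which 10 and 14 were Dpp4-type. The members past 3-fold were then 0 in Dpp4-type cells, where none had 20 UMIs, 2 in other cells, 2 between the classes of the WT library and 1 between those of the cKO library. Over all cells 1 member passed, Kdr in place of Angpt2, and Vegfd turned from 0.80 to -0.31 on the log2 scale over all cells. With 12 endothelial markers in place of that list, chosen after seeing the data, 0 members passed over all cells and 0 in other cells, as Angpt2 went from -1.69 to -1.58 over all cells. Kdr in the WT library was at 9.25 CPM outside cells with Pecam1 or Cdh5 and at 9.36 CPM outside cells with any of the 12, beside 33.2 CPM outside those with any of 17. Each count of members stayed within 1.5 times with TMM scaling, cells thinned to 5000 UMIs or equal weight of cells. It did so too with the top 2% of cells by UMIs, shared barcodes or cycling cells left out. Which members passed 3-fold between the classes of the cKO library changed under some of these settings. Members with under 20 UMIs in a class could not be compared at this depth.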
